A study of Homo sapiens with 18 samples.

Results

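The interaction of TRIM24 knockdown with cell line was measured on 12 of the 18 arrays of the series, 4 groups of 3. The members were chosen by their labels alone: LNCaP with control siRNA and vehicle, LNCaP with TRIM24 siRNA and vehicle, LNCaP-abl with control siRNA and vehicle, and LNCaP-abl with TRIM24 siRNA and vehicle. Cells of all 4 groups were transfected for 48 h and received ethanol as vehicle for 24 h. The shared growth protocol gives 48 h in charcoal-stripped serum, which removes steroid hormones, but it names LNCaP only, and no separate medium is stated for LNCaP-abl. The other 6 arrays are LNCaP with either siRNA and 10 nM dihydrotestosterone (DHT), the active androgen. LNCaP is an androgen-responsive prostate cancer line, and LNCaP-abl is a derivative of it that was selected for growth without androgen. Each line is represented by itself alone, and the labels do not say whether arrays of a group are separate cultures. All p-values therefore rest on differences among these arrays, part of which may be technical.

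TRIM24 is a nuclear protein with a PHD finger and a bromodomain that read histone tails, a RING domain of the ubiquitin ligase type, and a motif through which it binds nuclear receptors. In prostate cells such receptors answer to androgen and related steroids, and growth without androgen is the defining property of LNCaP-abl. Genes of DNA replication are known to be switched by E2F factors as cells enter S phase, and genes of mitosis by a complex that binds the cell cycle homology region (CHR), so that a dividing culture carries more of both kinds of transcript. In such bulk samples a smaller share of dividing cells and less RNA in each dividing cell cannot be told apart.

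The question of the comparison is whether loss of TRIM24 acts differently in the androgen-independent line. For each gene the interaction is the knockdown change in LNCaP-abl minus the knockdown change in LNCaP, on the log2 scale, so that a negative value means a lower response in LNCaP-abl and 1 unit is a 2-fold difference. An interaction counts as called where limma gave it an adjusted p (Benjamini-Hochberg, over all 13607 genes tested) under 0.05. TRIM24 itself (probe set 213301_x_at) read 9.69, 9.71 and 9.71 with control siRNA and 7.73, 7.70 and 7.69 with TRIM24 siRNA in LNCaP. In LNCaP-abl it read 9.44, 9.60 and 9.55 with control siRNA and 7.45, 7.55 and 7.35 after knockdown. Knockdown arrays lay below control arrays in both lines, and the interaction was -0.09 ± 0.08 (SE, adjusted p = 0.425), so a difference in the depth of knockdown was not detectable. The paralogs TRIM28, TRIM33 and TRIM66 were not called either, with interactions of -0.05, -0.12 and 0.24.

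Arrays had medians of log2 values between 5.83 and 5.93, and arrays of a group correlated at 0.996 to 0.998 over probe sets. Most luminal epithelial markers were bright on all 12: CDH1 read 13.34 to 13.64 and EPCAM 12.69 to 13.18. KLK2, at 4.91 to 5.66, and KRT19, at 4.62 to 5.57, were dim, and KLK3 ranged from 5.35 to 8.57. The leukocyte marker PTPRC read 3.13 to 3.54, but CD3E read 5.53 to 6.13, and the endothelial markers PECAM1 and VWF 5.95 to 6.29 and 6.20 to 6.76. None of the 3 measured leukocyte and endothelial markers had a called interaction in limma (1 at an unadjusted p under 0.05). Neuroendocrine markers were mixed, with CHGA at 4.79 to 5.17, NCAM1 at 6.15 to 7.07 and SYT1 at 5.79 to 8.34. None of the 3 measured was called in limma (1 at an unadjusted p under 0.05). Levels of fibroblast and mesenchymal markers were mixed. FN1 read 9.12 to 12.58, VIM 5.94 to 10.92 and TWIST1 3.25 to 8.51, while ZEB2 read 3.59 to 3.98. In that list 1 of 10 measured markers had a called interaction, COL3A1 at -0.46. Of the 9 luminal markers 1 was called, FOXA1 at -0.25 (not called as the mean of its probe sets), and of the 3 basal markers 1, DST at -0.24. The log2 ratio of 3' to 5' GAPDH control signal, a sign of RNA integrity, was 0.522 ± 0.032 with control and 0.591 ± 0.015 with TRIM24 siRNA in LNCaP, and 0.56 ± 0.014 and 0.641 ± 0.024 in LNCaP-abl (SD, n = 3). The same ratio for ACTB was 1.871 ± 0.057 and 2.052 ± 0.075 in LNCaP, and 1.874 ± 0.087 and 1.987 ± 0.093 in LNCaP-abl. With the mean of the GAPDH and ACTB ratios of each array as a covariate 3802 interactions were called.

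The response to TRIM24 siRNA depended on the line for 3880 of 13607 genes (28.5%). The larger share, 2712 genes (19.9%), had a lower response in LNCaP-abl, and 1168 (8.58%) a higher one. Most of these differences were small, with a median size of 0.30 among called genes. Of the 109 called genes whose interaction was at least 1 in size, 105 (0.772% of genes tested) were lower in LNCaP-abl and 4 (0.0294%) higher, and 77 of the 105 belong to the lists of replication, mitosis and recombination described next. Lower responses made up 69.9% of calls as deposited, 82.2% after each array was centred on its median, and 52.6% after quantile normalization, so the overall split depends on the scaling. Across genes the changes in the 2 lines had a Pearson correlation of 0.57, given as a description, since genes are not independent replicates.

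**Figure D1:**
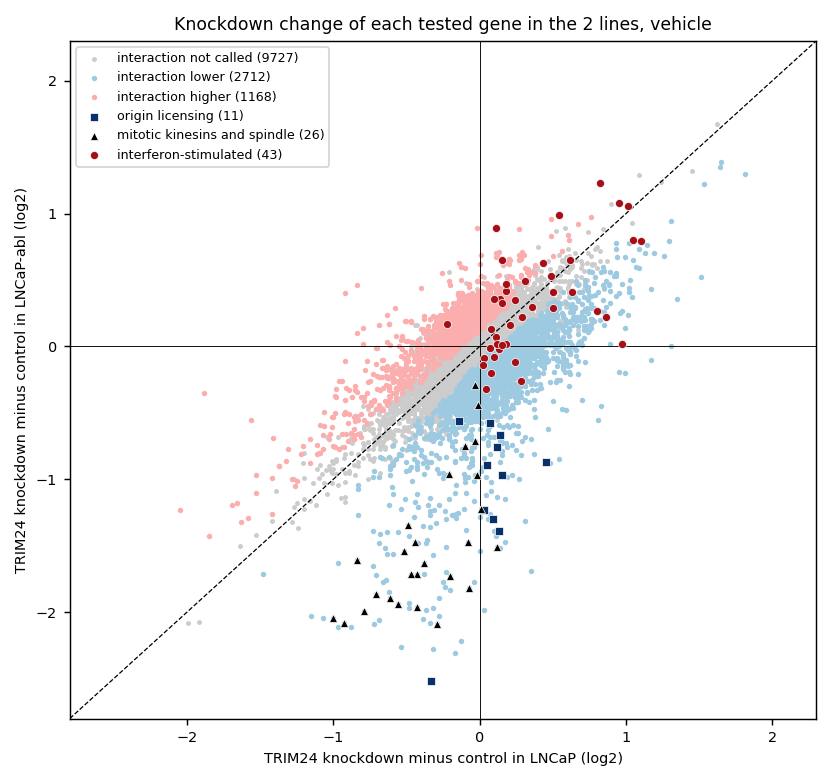
Knockdown change in LNCaP-abl (vertical, log2) against knockdown change in LNCaP (horizontal, log2) for each of the 13607 genes tested, vehicle arrays only; the dashed diagonal marks equal responses and colours give the call of the interaction. The 11 origin licensing genes and 26 mitotic kinesin and spindle genes lie below the diagonal, while the 43 interferon-stimulated genes lie on both sides of it.

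Knockdown itself raised 2276 genes (16.7%) and lowered 3925 (28.8%) in LNCaP-abl, and raised 2792 (20.5%) and lowered 2445 of the same 13607 in LNCaP. The called interactions were sorted by these calls, where a change in 1 line alone means that the vehicle arrays of the other line gave no call, which does not show that the gene stayed level there. The most common was a fall in LNCaP-abl alone, with 1003 genes, followed by a rise in LNCaP alone, with 759. A rise in LNCaP-abl alone was found for 426 genes and a fall in LNCaP alone for 277. Falls in both lines that were larger in LNCaP-abl numbered 309, and falls in both that were larger in LNCaP 201. Genes that rose in both lines were more raised in LNCaP in 241 cases and more raised in LNCaP-abl in 99. In 414 genes (3.04%) knockdown changed the level in opposite directions, and 151 genes were called in neither line by themselves.

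Genes of cell proliferation carried the strongest pattern. Across 9 lists of replication, G1 control, mitosis and recombination genes, 164 of 186 measured members had a lower response in LNCaP-abl and 1 a higher one. Their median interaction was -0.84, against -0.03 over all genes tested. The median knockdown change of these 186 genes was -0.92 in LNCaP-abl and -0.11 in LNCaP. On the DHT arrays of LNCaP, which the interaction does not use, it was -0.22. With control siRNA the median member was 0.93 higher in LNCaP-abl than in LNCaP, and LNCaP-abl after knockdown differed from LNCaP controls by a median of 0.04. The same arrays enter these differences and the interaction. The lists were chosen with earlier results of these data known. Members such as MCM10, SPC25, E2F8 and BRIP1 were tested through their LNCaP-abl control arrays alone, which favours a negative interaction. In 24 of the 186 the mean of the LNCaP controls was below 5.88, the median of the table, where values are compressed. Among the 125 members whose mean over arrays was at least 6.88, 113 were lower and the median was -0.72. At that level 2436 of 9936 genes tested were lower and 941 higher, with a median of -0.07.

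**Figure D2:**
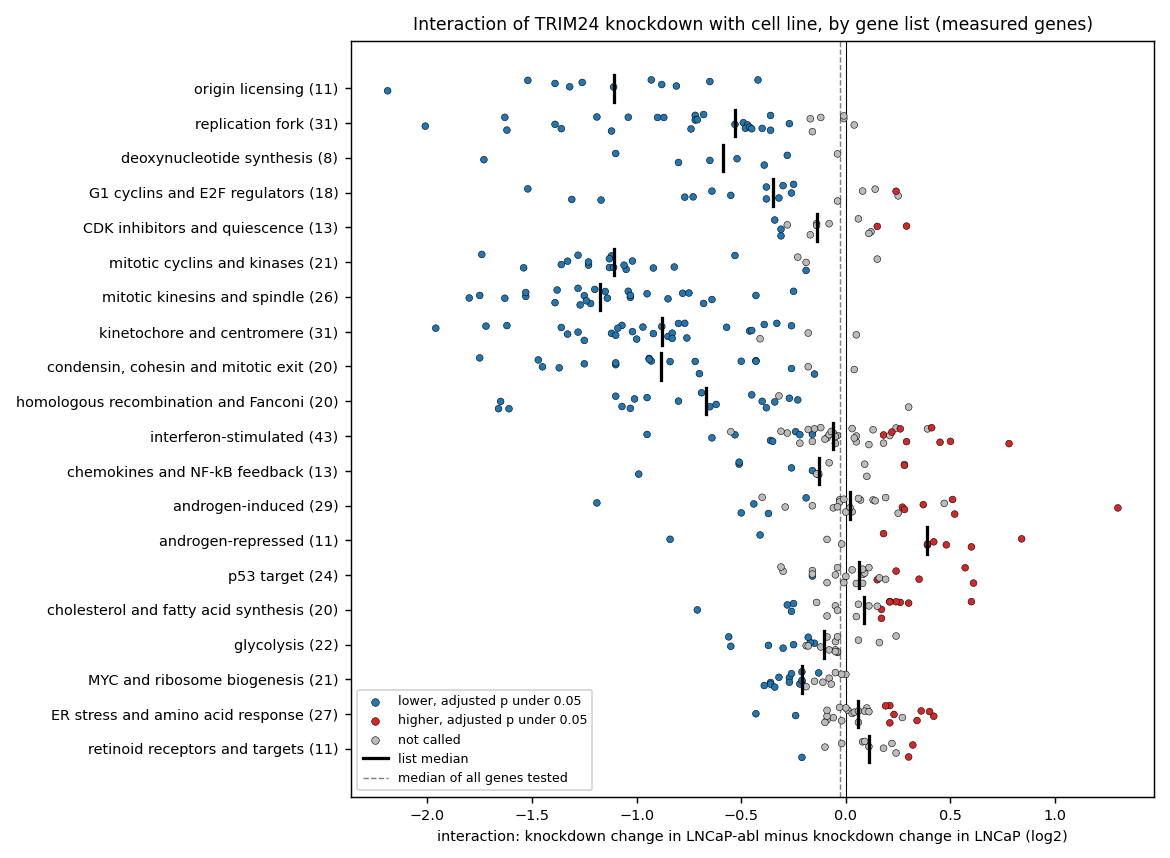
Interaction (horizontal, log2, knockdown change in LNCaP-abl minus that in LNCaP) of every measured gene, by list, with the number measured in brackets; black bars are list medians, the dashed line the median of all genes tested, and colours the call. All points of origin licensing and of mitotic kinesins and spindle lie to the left of 0, with medians of -1.11 and -1.18, and interferon-stimulated genes straddle it.

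Origin licensing loads the MCM2-7 helicase onto DNA before S phase. All 11 measured members had a lower response in LNCaP-abl, and their median knockdown change was -0.89 there and 0.09 in LNCaP. MCM2 (202107_s_at), a helicase subunit, read 8.15, 8.24 and 8.26 in LNCaP controls and 8.39, 8.34 and 8.36 after knockdown. LNCaP-abl arrays read 9.09, 9.13 and 9.14 with control siRNA and 8.08, 8.21 and 8.17 after knockdown. Knockdown arrays were above controls in LNCaP and below them in LNCaP-abl, without overlap, and knocked-down LNCaP-abl lay close to LNCaP controls. The interaction of MCM2 was -1.11 ± 0.06 (SE, adjusted p = 1.27e-08).

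MCM5, another helicase subunit, stood at 6.78, 6.85 and 6.91 in LNCaP controls, 6.94, 6.98 and 6.89 in LNCaP knockdown, 7.99, 8.07 and 8.04 in LNCaP-abl controls and 6.66, 6.76 and 6.78 in LNCaP-abl knockdown. The LNCaP groups overlapped and the LNCaP-abl groups did not, and the interaction was -1.39 ± 0.08 (adjusted p = 1.27e-08). The other helicase subunits followed, with interactions of -1.26 for MCM4 (-0.79 as the mean of its probe sets), -0.93 for MCM3, -0.81 for MCM7 and -0.65 for MCM6. The loading factors CDC6 and CDT1 had values of -1.52 and -0.88. The largest interaction of all genes tested was that of MCM10, which starts unwinding, at -2.19 ± 0.24, but its LNCaP vehicle arrays read 4.23 to 5.04, near the lower end of the scale. A gene was tested where its third-highest value reached 5.88. MCM10 did so through its LNCaP-abl control arrays alone, at 6.63, 7.24 and 7.09. Its highest other value was 5.56, on an LNCaP array with DHT. Entry through that group favours a negative interaction.

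Of 31 measured genes of the replication fork, 25 were lower in LNCaP-abl and none higher in limma (25 and 0 at an unadjusted p under 0.05). FEN1 (204767_s_at), the nuclease that trims Okazaki fragments, read 8.71, 8.68 and 8.65 in LNCaP controls and rose to 9.16, 9.08 and 9.23. It started at 9.81, 9.93 and 9.92 in LNCaP-abl controls and fell to 9.02, 9.0 and 8.99. Both shifts exceeded the spread within groups, in opposite directions, and the interaction was -1.36 ± 0.07 (adjusted p = 4.88e-09). GINS1 (206102_at), part of the GINS complex that activates the helicase, moved the same way: 7.60, 7.54 and 7.34 became 8.08, 8.01 and 8.0 in LNCaP, and 9.35, 9.27 and 9.37 became 8.42, 8.50 and 8.53 in LNCaP-abl. Its interaction was -1.39 ± 0.11, with all 3 knockdown arrays above controls in LNCaP and below them in LNCaP-abl.

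PCNA, the sliding clamp of the polymerases, had an interaction of -0.72 ± 0.08 (adjusted p = 6.65e-06). RFC3, a clamp loader subunit, reached -1.19, or -0.66 as the mean of its probe sets, and UHRF1, which recruits the maintenance DNA methyltransferase, -1.63. DTL, the substrate receptor of the ligase that removes CDT1 in S phase, had a value of -2.01, with LNCaP arrays of 4.96 to 5.30. The 6 members without a call were RFC5 at 0.04, POLD1 at -0.01, POLE at -0.01, POLA2 at -0.12, TICRR at -0.16 and LIG1 at -0.17. GINS2 had a value of -1.12, but -0.38 as the mean of its probe sets.

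The promoters of MCM2, GINS1 and DTL are shown because these genes stand for the replication genes whose response differed between the lines, and because their windows hold E2F letters. Each window runs from 250 bases before to 50 after the gene start in RefSeq (GRCh38.p14) and is printed from 5′ to 3′ along the gene's strand, with capitals marking E2F matches (TTTCCCGC, TTTGGCGC, TTTCGCGC or TTTGCCGC on either strand) and CCAAT boxes (CCAAT on either strand).
MCM2, chr3:127598161-127598460, plus strand: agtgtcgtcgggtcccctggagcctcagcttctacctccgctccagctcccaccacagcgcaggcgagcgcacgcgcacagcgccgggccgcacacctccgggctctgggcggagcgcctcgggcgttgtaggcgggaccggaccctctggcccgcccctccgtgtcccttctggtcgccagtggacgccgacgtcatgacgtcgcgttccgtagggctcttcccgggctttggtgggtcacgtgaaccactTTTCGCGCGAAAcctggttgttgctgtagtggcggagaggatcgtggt
GINS1, chr20:25407423-25407722, plus strand: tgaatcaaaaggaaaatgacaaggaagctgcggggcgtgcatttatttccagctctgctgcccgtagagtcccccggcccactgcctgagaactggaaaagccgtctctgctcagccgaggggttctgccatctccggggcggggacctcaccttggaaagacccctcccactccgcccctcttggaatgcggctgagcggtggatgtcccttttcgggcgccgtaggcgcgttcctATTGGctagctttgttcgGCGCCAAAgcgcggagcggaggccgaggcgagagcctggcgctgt
DTL, chr1:212035498-212035797, plus strand: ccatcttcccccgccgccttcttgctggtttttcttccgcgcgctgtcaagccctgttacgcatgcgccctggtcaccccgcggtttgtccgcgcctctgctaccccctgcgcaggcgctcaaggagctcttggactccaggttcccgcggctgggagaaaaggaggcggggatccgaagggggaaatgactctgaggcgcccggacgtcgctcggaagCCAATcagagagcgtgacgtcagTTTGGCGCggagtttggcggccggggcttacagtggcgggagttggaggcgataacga
The E2F match of MCM2 is a pair of overlapping matches, on both strands, that starts 2 bases after the gene start. GINS1 has its match on the reverse strand 5 bases after the start, and DTL has one 8 bases before it. An E2F match was found in 6 of 9 origin licensing promoters (66.7%) and 13 of 28 replication fork promoters (46.4%), against 5.05% of the 10959 promoters of genes tested and 3.33% of all 27305 promoters of the same length. A match is a description of letters, not a binding site.

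Enzymes that supply deoxynucleotides were lower in LNCaP-abl in 7 of 8 measured cases. RRM2 (201890_at), the regulated subunit of ribonucleotide reductase, read 7.25, 7.20 and 7.12 in LNCaP controls and 7.19, 7.11 and 7.13 after knockdown. In LNCaP-abl it went from 10.01, 10.05 and 9.98 to 8.28, 8.11 and 8.34, which was 29.3% of control on the linear scale. The LNCaP groups overlapped while the LNCaP-abl groups were far apart, with a knockdown mean still 1.06 above the LNCaP controls, and the interaction was -1.73 ± 0.09 (adjusted p = 4.88e-09). Thymidine kinase TK1 and thymidylate synthase TYMS fell in both lines, more in LNCaP-abl, with interactions of -1.10 and -0.80, the latter -0.53 as the mean of its probe sets.

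Among 18 measured G1 cyclins, kinases and E2F regulators 13 were lower in LNCaP-abl and 1 higher. Some of the kinases rose in LNCaP. CDK6 (224847_at), a partner of D-type cyclins, read 6.10, 6.31 and 6.36 in LNCaP controls and 7.5, 7.62 and 7.58 after knockdown, 248% of control. The LNCaP-abl arrays read 5.54, 5.69 and 5.55 with control and 5.48, 5.51 and 5.79 with TRIM24 siRNA. LNCaP knockdown arrays were above all others while the LNCaP-abl groups overlapped, just below 5.88, and the interaction was -1.31 ± 0.12 (adjusted p = 1.61e-06). Averaging its probe sets gave -0.44.

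CDK2, the kinase of S phase entry, rose by 0.58 in LNCaP and fell by 0.19 in LNCaP-abl, with an interaction of -0.77 ± 0.08, or -0.33 as the mean of its probe sets. SKP2, which marks the CDK inhibitor p27 for destruction, rose by 0.43 in LNCaP and fell by 0.20 in LNCaP-abl, with an interaction of -0.64 that averaging reduced to -0.22. E2F8, a repressor among the E2F factors, fell to 29.4% of control in LNCaP-abl. It read 4.07 to 4.85 in LNCaP with vehicle, without a call, and fell by 0.41 with DHT (limma adjusted p = 0.0317). The part of its low level was not tested. The activators E2F1 and E2F2 were not called, with interactions of 0.08 and 0.14. CCND1, cyclin D1, was the member with a higher value: it fell in both lines, by 1.25 in LNCaP and by 1.01 in LNCaP-abl, and was named after its values were seen. Of 13 measured CDK inhibitors and quiescence genes 2 were higher and 3 lower, beside 8.58% and 19.9% of all genes. E2F4 was higher, at 0.29, but its most variable probe set gave 0.11, not called (limma adjusted p = 0.391). CDKN1B, which encodes p27, was lower, at -0.31.

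Mitotic cyclins and kinases were lower in LNCaP-abl for 18 of 21 measured genes, and their median knockdown change was -1.48 there and -0.31 in LNCaP. CDK1 (203213_at), the kinase of mitotic entry, read 9.30, 9.26 and 9.18 in LNCaP controls and 9.04, 8.98 and 9.04 after knockdown. In LNCaP-abl it went from 10.25, 10.32 and 10.30 to 8.80, 8.82 and 8.73. It fell in both lines without overlap of the groups, to 85.5% of control in LNCaP and 35.1% in LNCaP-abl. The interaction was -1.28 ± 0.07 (limma adjusted p = 5.19e-09), or -1.02 as the mean of its probe sets. TTK, the kinase of the spindle checkpoint, had a value of -1.74. AURKB, of the chromosomal passenger complex, had -1.13, or -0.80 as the mean of its probe sets. LNCaP means of both were below 5.88 with either siRNA. WEE1, which holds CDK1 inactive, rose by 0.45 in LNCaP and had an interaction of -0.53. PLK1, at 0.15, PKMYT1, at -0.23, and CCNF, at -0.19, were not called.

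All 26 measured mitotic kinesins and spindle genes were lower in LNCaP-abl, with a median of -1.18. NUSAP1 (218039_at), a spindle microtubule binder, read 7.46, 7.55 and 7.55 in LNCaP controls and 7.38, 7.24 and 7.34 after knockdown. In LNCaP-abl it read 9.85, 9.79 and 9.82 in controls and 8.16, 8.09 and 8.01 after knockdown, 30.1% of control. The level fell in both lines without overlap, far more in LNCaP-abl, and the interaction was -1.53 ± 0.06 (adjusted p = 1.39e-09). PRC1, which bundles midzone microtubules, had an interaction of -1.25 ± 0.07, and KIF20A, a kinesin of cytokinesis, -1.20 ± 0.06. KIF14, a midbody kinesin, and CEP55, an abscission factor, had values of -1.75 and -1.80, with LNCaP controls near or below 5.88.

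Of 31 kinetochore and centromere genes 28 were lower. SPC25 and KNL1, which join chromosomes to microtubules, had the largest values, -1.96 and -1.72, again from LNCaP levels below 5.88. Brighter members were CENPW at -1.25, CENPU at -1.12 and ZWILCH at -1.02. CENPA, the centromeric histone, was not called, at 0.05 ± 0.15. CENPQ (219294_at) rose in LNCaP from 5.41, 5.65 and 5.55 to 6.37, 6.24 and 6.45 and fell in LNCaP-abl from 7.11, 7.12 and 7.14 to 6.51, 6.56 and 6.66. Its groups did not overlap in either line, and the interaction was -1.36 ± 0.09 (limma adjusted p = 8.59e-08). The LNCaP controls of CENPQ also lay below 5.88.

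Condensin, cohesin and mitotic exit genes were lower in 18 of 20 cases. UBE2C (202954_at), the ubiquitin carrier of the anaphase-promoting complex, had the smallest adjusted p of all named genes. It read 7.58, 7.61 and 7.58 in LNCaP controls and 7.28, 7.41 and 7.39 after knockdown. Levels in LNCaP-abl were 9.35, 9.32 and 9.35 with control siRNA and 7.71, 7.64 and 7.59 with TRIM24 siRNA. Knocked-down LNCaP-abl lay close to LNCaP controls, while LNCaP fell by a small step, and the interaction was -1.47 ± 0.05 (adjusted p = 2.14e-10). CDC20, an activator of the same complex, and TOP2A, which untangles sister chromatids, had values of -1.37 and -1.75, the latter -1.34 as the mean of its probe sets. The cohesin subunits differed less: SMC1A at -0.15 and SMC3 at -0.43 were called and STAG2, at 0.04, was not.

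**Figure D3:**
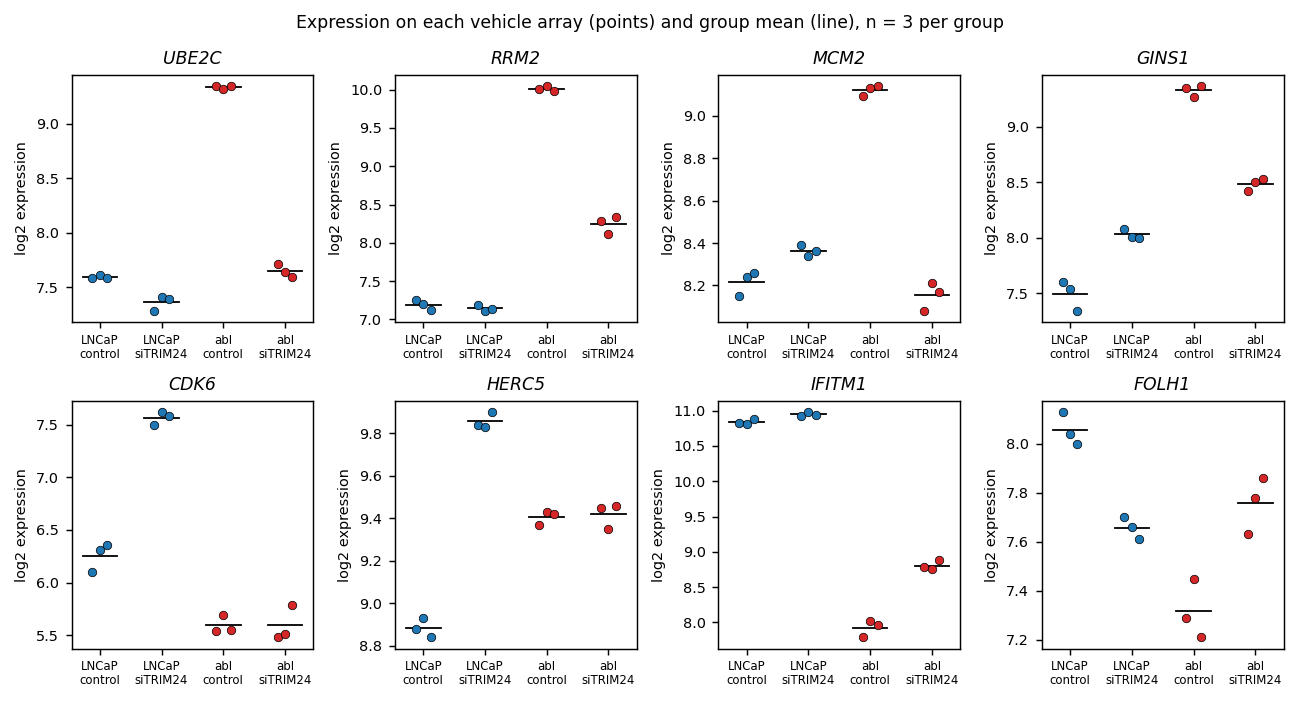
Log2 expression (vertical, each panel with its own scale that does not start at 0) of 8 genes on the 12 vehicle arrays, blue for LNCaP and red for LNCaP-abl, points for arrays and lines for group means, n = 3. UBE2C, RRM2 and MCM2 are highest in LNCaP-abl controls, and RRM2 stays above LNCaP after knockdown, GINS1 rises in LNCaP and falls in LNCaP-abl, CDK6 and HERC5 rise in LNCaP and overlap in LNCaP-abl, IFITM1 rises far more in LNCaP-abl than in LNCaP, and FOLH1 falls in LNCaP and rises in LNCaP-abl.

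The promoters of DEPDC1B, KIF14 and PRC1 are shown as examples of mitotic genes with a lower response in LNCaP-abl whose windows hold a CHR beside a CCAAT box. Capitals mark CHR matches (TTTGAA or TTCGAA on either strand) and CCAAT matches, with the same windows and build as above.
DEPDC1B, chr5:60700117-60700416, minus strand: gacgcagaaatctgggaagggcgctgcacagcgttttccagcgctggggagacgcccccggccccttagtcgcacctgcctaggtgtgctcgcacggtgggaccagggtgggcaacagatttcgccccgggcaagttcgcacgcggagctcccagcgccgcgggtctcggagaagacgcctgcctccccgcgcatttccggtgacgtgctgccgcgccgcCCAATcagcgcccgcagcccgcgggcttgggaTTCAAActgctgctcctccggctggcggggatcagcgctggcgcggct
KIF14, chr1:200620702-200621001, minus strand: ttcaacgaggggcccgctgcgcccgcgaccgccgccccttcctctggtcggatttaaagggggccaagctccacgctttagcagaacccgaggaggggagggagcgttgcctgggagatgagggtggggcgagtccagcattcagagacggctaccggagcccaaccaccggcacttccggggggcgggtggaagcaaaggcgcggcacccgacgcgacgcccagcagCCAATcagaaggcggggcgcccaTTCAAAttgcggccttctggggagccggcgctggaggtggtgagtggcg
PRC1, chr15:90994486-90994785, minus strand: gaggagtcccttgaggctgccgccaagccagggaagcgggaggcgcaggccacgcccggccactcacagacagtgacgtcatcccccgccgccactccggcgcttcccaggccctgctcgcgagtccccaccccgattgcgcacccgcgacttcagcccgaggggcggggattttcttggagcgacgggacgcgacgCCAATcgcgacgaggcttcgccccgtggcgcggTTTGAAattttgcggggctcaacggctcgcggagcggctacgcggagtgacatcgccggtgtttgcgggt
In DEPDC1B and KIF14 the CHR lies 2 bases and 1 base after the gene start and the CCAAT box 30 and 22 bases before it. In PRC1 both lie before the start, at 20 and 53 bases. CHR letters were found in 19 of 23 promoters of mitotic kinesin and spindle genes (82.6%), 13 of 23 of kinetochore genes (56.5%) and 8 of 16 of mitotic cyclins and kinases, against 11.2% of the promoters of genes tested and 16.6% of all promoters. None of 28 replication fork promoters held them. Promoters of genes with a lower response in LNCaP-abl held a CHR in 15.2% of cases, those with a higher response in 8.24% and those without a call in 10.4%.

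**Figure D4:**
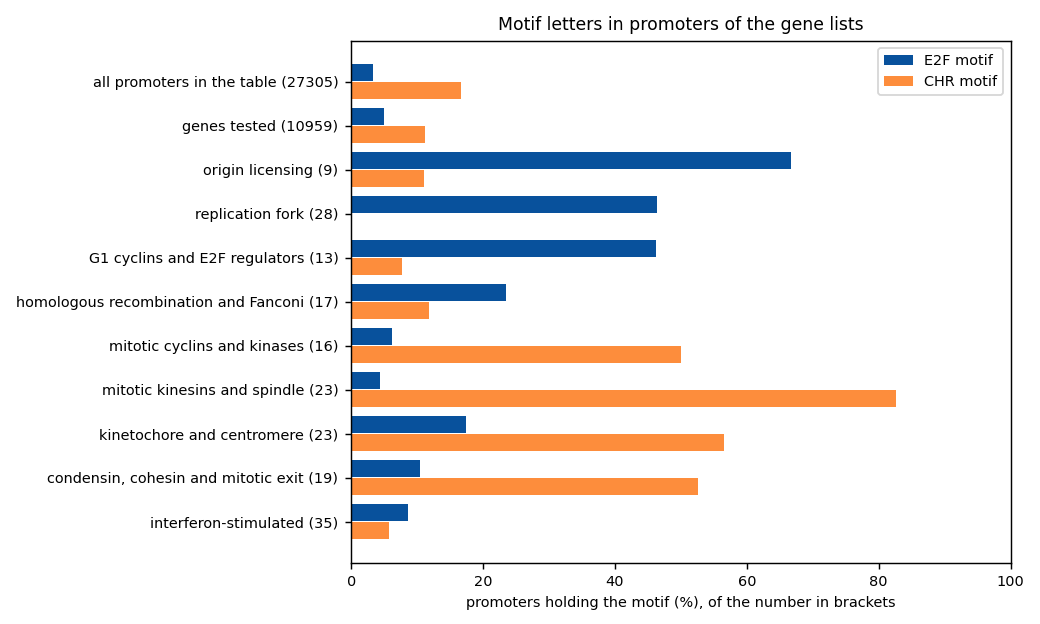
Share of RefSeq promoter windows (horizontal, percent of the number in brackets) that hold E2F letters (blue) or CHR letters (orange), for all promoters, the genes tested and the gene lists. E2F bars are long for origin licensing, at 66.7%, and replication fork genes, and CHR bars for mitotic kinesins and spindle genes, at 82.6%.

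Genes of homologous recombination and the Fanconi pathway, which repair broken and crosslinked DNA, were lower in LNCaP-abl in 18 of 20 cases, with a median of -0.67. BRIP1, a repair helicase, had an interaction of -1.66, with LNCaP means of 5.33 and 4.95, below 5.88. RMI2, of the complex that dissolves recombination intermediates, rose by 0.59 in LNCaP and fell by 0.48 in LNCaP-abl. XRCC3, at 0.30 ± 0.15, was not called.

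Genes changed in opposite directions were of 2 kinds. Knockdown raised 311 genes in LNCaP while lowering them in LNCaP-abl (2.29%), and 19 of these are in the proliferation lists. The reverse was seen for 103 genes (0.757%). These class counts moved with scaling and RNA quality: quantile normalization gave 199 and 159, median centring left 53 in the second class, and the 3' to 5' covariate left 110 and 31. Beside FEN1, GINS1 and CENPQ, the largest of the first kind were DEPDC1B at -2.03, ORC6, a subunit of the origin recognition complex, at -1.32, and FRY at -1.27. FRY read 7.36, 7.45 and 7.27 in LNCaP controls, 8.21, 8.15 and 8.20 in LNCaP knockdown, 7.24, 7.51 and 7.28 in LNCaP-abl controls and 6.86, 6.91 and 6.91 in LNCaP-abl knockdown. The controls of the 2 lines overlapped, and the knockdown groups lay on opposite sides of them.

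**Figure D5:**
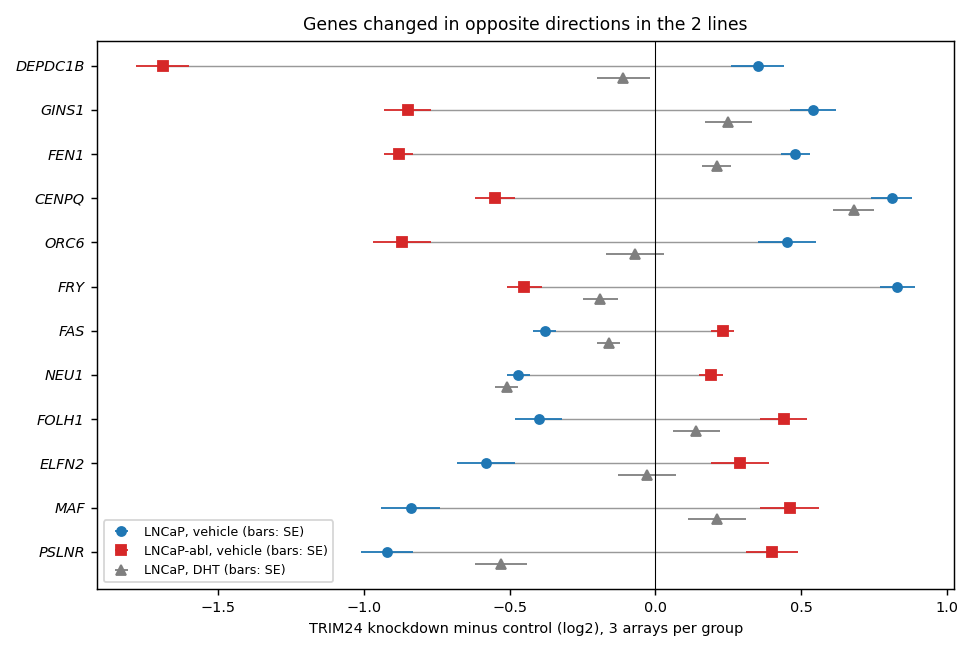
Knockdown change (horizontal, log2, bars give the SE of the fit) of the 12 genes with the largest interactions among those changed in opposite directions, in LNCaP with vehicle (blue circles), LNCaP-abl with vehicle (red squares) and, for reference, LNCaP with DHT (grey triangles). The upper 6 genes lie to the right of 0 in LNCaP and to the left in LNCaP-abl, and the lower 6 the other way round.

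Of the second kind, FOLH1 (217483_at), the gene of prostate-specific membrane antigen, read 8.13, 8.04 and 8.0 in LNCaP controls and 7.70, 7.66 and 7.61 after knockdown. LNCaP-abl gave 7.29, 7.45 and 7.21 in controls and 7.63, 7.78 and 7.86 after knockdown. The lines started apart and ended close together, with an interaction of 0.84 ± 0.11 (adjusted p = 3.98e-05). FAS, a death receptor, fell by 0.38 in LNCaP and rose by 0.23 in LNCaP-abl, with an interaction of 0.61 ± 0.06. NEU1, a lysosomal sialidase, had a value of 0.67, and PSLNR, a noncoding RNA, 1.33 ± 0.12.

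Of the 12 largest positive interactions 7 were falls in LNCaP alone or larger falls in LNCaP, 4 were opposite changes and 1 was a rise in LNCaP-abl alone. NAALADL2 (1557998_at) read 6.80, 7.34 and 6.90 in LNCaP controls and 5.24, 5.10 and 5.08 after knockdown. In LNCaP-abl it read 4.67, 4.77 and 4.54 and then 4.33, 4.34 and 4.25. It fell in both lines, to 27.3% of control in LNCaP and 78.3% in LNCaP-abl, and the interaction was 1.52 ± 0.14 (adjusted p = 1.81e-06), with all LNCaP-abl arrays near the lower end of the scale. CXCR4, a chemokine receptor, fell to 57.5% of control in LNCaP and read 3.58 to 3.89 on all LNCaP-abl arrays. Its interaction was 0.94 ± 0.10, or 0.65 as the mean of its probe sets. CP, the copper carrier ceruloplasmin, had a value of 1.01 ± 0.19.

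MAF, a leucine zipper transcription factor, had an interaction of 1.30 ± 0.15, but its LNCaP-abl arrays read 3.23 to 4.07, and as the mean of its probe sets the value was 0.59. The same averaging gave 0.53 for CP and 0.35 for the water channel AQP3, whose own value was 0.82. For FLRT3, an adhesion protein, it gave 0.33, against its own value of 0.87, and another of its probe sets gave -0.21. FLRT3 read 3.64 to 4.54 on LNCaP vehicle arrays, near the lower end of the scale, and 11.63 to 11.92 in LNCaP-abl. ADRA1A (237390_at), an adrenergic receptor, is the example of a rise in LNCaP-abl alone: 8.52, 8.62 and 8.65 became 9.45, 9.57 and 9.43. Its LNCaP arrays read 4.41 to 4.64 with either siRNA, and the interaction was 0.91 ± 0.16 (adjusted p = 0.000565), or 0.54 as the mean of its probe sets. What part low levels play in these differences was not tested.

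The lists that follow stand beside 8.58% higher and 19.9% lower over all genes tested. Where counts under other settings are given, the counts over all genes differ too. Of 13607 genes 746 were higher and 3435 lower after median centring, and 1644 and 1827 after quantile normalization. On the linear scale 1280 were higher and 3049 lower. With gene-specific probe sets 817 of 10430 genes were higher and 1908 lower. Of 43 measured interferon-stimulated genes 8 were higher in LNCaP-abl and 8 lower, the latter a share close to that of all genes. Their median interaction was -0.06, and the median knockdown change was 0.29 in LNCaP-abl and 0.24 in LNCaP. HERC5 (219863_at), the ligase that attaches ISG15, read 8.88, 8.93 and 8.84 in LNCaP controls and 9.84, 9.83 and 9.90 after knockdown. In LNCaP-abl it read 9.37, 9.43 and 9.42 with control siRNA and 9.45, 9.35 and 9.46 with TRIM24 siRNA. LNCaP went from below to above LNCaP-abl, whose groups overlapped, and the interaction was -0.95 ± 0.06 (adjusted p = 2.33e-08).

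IFITM1 (214022_s_at), a membrane protein that blocks virus entry, differed the other way. It read 10.83, 10.81 and 10.88 in LNCaP controls and 10.92, 10.98 and 10.94 after knockdown, against 7.79, 8.02 and 7.96 and then 8.78, 8.76 and 8.88 in LNCaP-abl. It rose to 185% of control in LNCaP-abl. In LNCaP the knockdown arrays also lay above the controls, by 0.11 without a call (adjusted p = 0.108), and with DHT it rose by 0.28. The interaction was 0.78 ± 0.07 (adjusted p = 1.57e-06). OAS1, which senses double-stranded RNA, and IFI6 rose in both lines, more in LNCaP-abl, with interactions of 0.45 and 0.50. Both were far brighter in LNCaP, and on the linear scale OAS1 is reversed, at -115 units (adjusted p = 0.000213), while IFI6, at -201 units, is not called (adjusted p = 0.411). On that scale 23 genes of the list were lower and 2 higher. Quantile normalization gave 4 lower and 9 higher.

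The chemokine CXCL10 and the RNA sensor IFIH1 rose in both lines, more in LNCaP, with interactions of -0.64 and -0.53. IFIT3, at 0.13 ± 0.06, and OASL, at 0.05, rose in both lines without a called difference. Of 13 measured chemokine and NF-kB feedback genes 5 were lower in LNCaP-abl and 1 higher. With gene-specific probe sets 1 of 7 was lower and none higher. Without the low-value filter 3 were lower and 2 higher, beside 2277 and 1076 of 19775 genes. CXCL8 (202859_x_at), which encodes interleukin 8, went from 6.82, 6.86 and 6.59 to 8.28, 8.23 and 8.30 in LNCaP and from 6.13, 6.32 and 6.58 to 7.03, 6.71 and 6.87 in LNCaP-abl. Every knockdown array was above every control array of its line, and the rise was larger in LNCaP, with an interaction of -0.99 ± 0.15 (adjusted p = 0.000223). The NF-kB subunit gene NFKB1 rose in LNCaP by 0.54, without a call in LNCaP-abl, with a value of -0.51, and its feedback inhibitor TNFAIP3 also had -0.51. IER3 was higher, at 0.28, but lost its call in 4 of 12 fits without 1 array. CCL20 rose in both lines, by 1.45 in LNCaP and 1.32 in LNCaP-abl, and was not called.

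Of 11 measured androgen-repressed genes 7 had a higher response in LNCaP-abl, against 8.58% of all genes, and 2 a lower one, with a median of 0.39. With gene-specific probe sets 9 were measured, of which 3 were higher and 2 lower. The steroid-glucuronidating enzymes UGT2B15, UGT2B17 and UGT2B28, which have similar sequences, had interactions of 0.39, 0.60 and 0.39. UGT2B17 fell to 69.1% of control in LNCaP and was not called in LNCaP-abl, and UGT2B15 fell in LNCaP and rose in LNCaP-abl. On the DHT arrays of LNCaP the knockdown changes of UGT2B15 and UGT2B17 were 0.60 and 0.44. BASP1, a membrane-associated protein, was lower, at -0.84 ± 0.14: it rose by 0.72 in LNCaP and was not called in LNCaP-abl, and averaging its probe sets gave -0.32.

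Of 29 androgen-induced genes 6 were higher and 5 lower, beside 8.58% and 19.9% of all genes, with a median of 0.02. TMPRSS2, a membrane serine protease, rose by 0.32 in LNCaP-abl and was not called in LNCaP with vehicle, with an interaction of 0.37 ± 0.05. With DHT it rose in LNCaP too, by 0.27 (adjusted p = 9.82e-06). FKBP5, a steroid receptor co-chaperone, fell in both lines, by 0.91 in LNCaP-abl and by 0.47 in LNCaP, with an interaction of -0.44, which averaging its probe sets reduced to -0.20, not called. SLC45A3, a sugar transporter known as prostein, fell by 1.69 in LNCaP and fell by 1.19 in LNCaP-abl, an interaction of 0.51. The kallikreins KLK2, at 0.07, and KLK3, at 0.47 (adjusted p = 0.075), were not called.

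Of 24 p53 targets 5 were higher and 1 lower, and 18 were not called. After median centring 4 were higher and 3 lower, and with gene-specific probe sets 1 of 15 was higher and 1 lower. GDF15, a stress-induced cytokine, fell in LNCaP and rose in LNCaP-abl, with an interaction of 0.57 ± 0.07, and averaging its probe sets gave 0.22, not called. CDKN1A, the CDK inhibitor p21, had a value of 0.15 (adjusted p = 0.042), and MDM2 was not called, at 0.03. Endoplasmic reticulum stress genes were higher in 8 of 27 cases and lower in 2. After median centring 5 were higher and 4 lower, and on the linear scale 8 and 6. The chaperones and folding factors DNAJB9, CRELD2 and PDIA4 had values of 0.42, 0.36 and 0.40, and the stress factors ATF4, at -0.09, and DDIT3, at 0.06, were not called.

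Lipid synthesis genes were higher in 8 of 20 cases and lower in 4. SCD (200832_s_at), which desaturates fatty acids, read 13.12, 13.14 and 13.12 in LNCaP controls and 12.19, 12.25 and 12.23 after knockdown, against 13.34, 13.33 and 13.39 and then 13.04, 13.08 and 13.03 in LNCaP-abl. The groups did not overlap in either line, the fall was larger in LNCaP, and the interaction was 0.60 ± 0.04 (adjusted p = 8.59e-08), or 0.35 as the mean of its probe sets. HMGCS1, of the cholesterol pathway, rose more in LNCaP, by 0.96 against 0.25 in LNCaP-abl, a difference of -0.71 ± 0.08, or -0.43 as that mean. After median centring 4 members were higher and 5 lower.

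Glycolysis and ribosome biogenesis genes had called interactions in the lower direction alone in limma, and none was higher at an unadjusted p under 0.05. Of 22 glycolysis genes 8 were lower, among them HK2, which phosphorylates glucose, at -0.55, PDK1, which restrains pyruvate oxidation, at -0.56, and LDHA, lactate dehydrogenase, at -0.25. For HK2 the mean of probe sets was -0.13 and not called, for PDK1 it was -0.24, and on the linear scale 10 of the list were lower and 2 higher. Of 21 ribosome biogenesis genes 13 were lower, with a median of -0.21, among them FBL, the methyltransferase of ribosomal RNA, at -0.36 ± 0.04. MYC itself rose by 0.44 in LNCaP and 0.23 in LNCaP-abl, with an interaction of -0.21. Among 11 retinoid receptors and targets RARG, at 0.30, and DHRS3, at 0.32, were higher and RXRA, at -0.21, was lower. As the mean of its probe sets RARG had 0.18 and was not called (adjusted p = 0.133), and RXRA was not called after quantile normalization or without 1 LNCaP control array.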

How the data were processed

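The log2 expression values were used as the authors deposited them, after RMA per the submitters' processing notes. RMA corrects background, sets arrays to 1 distribution and summarises probes, which hides changes shared by most transcripts and compresses low values. The sources used here give neither its version nor scan dates. Of 54675 probe sets, 41091 had 1 symbol, 1801 several and 11777 none. The probe set with the highest mean stood for each of 19775 genes, and 13607 genes whose third-highest value reached 5.88 were tested. A gene bright in a single group could pass. MCM10, SPC25, DEPDC1B, E2F8 and BRIP1 reached 5.88 on their LNCaP-abl control arrays alone, which favours a negative interaction. A group-means model took in all 18 arrays and was fitted in R 4.3.3 with limma 3.58.1, which left 12 residual degrees of freedom and a median residual SD of 0.073. Tests were two-sided. In data simulated for this interaction over 13607 genes, 40, 82 and 99 of 100 changes of 0.25, 0.5 and 1 were recovered.

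The members and the 26 lists, with 448 of 530 genes measured, were chosen with earlier results of these data known. Named genes followed a rule: TRIM24, the 12 largest interactions each way that held in every fit without 1 array, the 4 called genes of each list with the lowest adjusted p, and the 6 largest each way among opposite changes. Other list members, the promoters shown and the genes plotted were chosen after their values were seen. Alternatives changed the filter, probe set, scaling, samples, variance model and threshold. Promoters came from RefSeq (GRCh38.p14) for 10959 genes tested. Some list members are not analysed here.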

Additional observations from a re-analysis of the deposited data

Results flagged for a closer look

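These results stood out because the knockdown effect differed between LNCaP and LNCaP-abl by the interaction itself, tested with limma. Over all genes 3880 were called, and 2747 of them kept their call and sign in each of 12 fits without 1 array. In 414 genes the knockdown effects were called in opposite directions, a class that rests on 3 calls at once.

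Genes that rose in LNCaP and fell in LNCaP-abl were led by DEPDC1B at -2.03, GINS1 at -1.39, FEN1 and CENPQ at -1.36 each, ORC6 at -1.32 and FRY at -1.27. DEPDC1B read 4.12 to 4.69 in LNCaP with vehicle, near the lower end of the scale. CENPQ read 5.41 to 5.65 on LNCaP vehicle controls, below 5.88. GINS1, FEN1, ORC6 and FRY read above 7 on every LNCaP array. Genes that fell in LNCaP and rose in LNCaP-abl were led by PSLNR at 1.33, MAF at 1.30, ELFN2 at 0.86, FOLH1 at 0.84, NEU1 at 0.67 and FAS at 0.61. As the mean of probe sets MAF had 0.59 and ELFN2 0.35. The dimmer probe sets of FRY had interactions of -0.58, -0.35 and -0.21, with LNCaP changes of -0.08, 0.05 and 0.18. On the LNCaP arrays with DHT the knockdown change was 0.68 for CENPQ, -0.19 for FRY, -0.51 for NEU1 and 0.14 for FOLH1. The part of low levels, RNA quality and scaling in these differences was not tested gene by gene.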

How the results depend on the processing

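Direction and call, or for TRIM24 the lack of a call, held for all 108 named genes under several alternatives. These were median centring, array weights, the 3' to 5' covariate, no filter, the 12 vehicle arrays alone and the replicate block. Apart from TRIM24 the named genes were picked among called ones, so their stability says little about the remaining calls. The mean of probe sets ended 10 calls and the linear scale 8. Reversed were GINS2, at 0.15 with gene-specific probe sets, FOXA1, at 0.08 with the most variable probe set, and on the linear scale OAS1 at -115, IFI6 at -201 (not called there) and DST at 153. FOXA1 and GINS2 were not called in the reversed fits either. The cause was not tested. Replicate numbers did not pair the arrays: same-numbered arrays deviated together at -0.139 to 0.196, and 4 of 12 matched their own number best. With the replicate block 3701 interactions were called.

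Without 1 array at a time calls numbered 3170 to 3899, with 970 to 1167 higher, 2200 to 2732 lower, 227 to 318 and 77 to 96 in the opposite classes, and 157 to 163 lower among proliferation genes. COL3A1, IER3 and RXRA lost their call in some of these fits. Calls higher in LNCaP-abl numbered 746 after median centring. Of the opposite classes, the one that fell in LNCaP and rose in LNCaP-abl held 55 genes with gene-specific probe sets, 53 after centring, 159 after quantile normalization and 31 with the covariate, and the other held 199 after quantile normalization and 110 with the covariate. An adjusted p under 0.01 left 2216 calls, 610 higher and 1606 lower. A size of at least 0.5 left 597, 96 and 501, with 117 and 14 in the opposite classes. A size of at least 1 left 109, 4 and 105, with 18 and 2, and 77 proliferation genes. Testing every probe set gave 5933 calls, 1788 and 4145. Signal over background limits the LNCaP values of 17 named genes, whose group means were below 5.88, and the LNCaP-abl values of 6.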

Other observations

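Large interactions were also found for genes outside the lists. ZNF367, a zinc finger protein, fell in LNCaP-abl to 20.2% of control and had an interaction of -2.13 ± 0.19 (SE, limma adjusted p = 1.16e-06), with LNCaP arrays of 4.64 to 5.15. SHCBP1, a binding partner of the adaptor SHC1, fell to 21.4% of control in LNCaP-abl, with an interaction of -2.09 ± 0.14 (adjusted p = 5.17e-08). In LNCaP with vehicle neither was called. SHCBP1 means there were 5.78 and 5.65, so that both genes had LNCaP means below 5.88. The part of these low levels was not tested. With DHT both fell in LNCaP, ZNF367 by 0.72 (limma adjusted p = 0.000397) and SHCBP1 by 0.71 (limma adjusted p = 1.94e-05).

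DIO1, which activates thyroid hormone, read 6.88, 7.06 and 7.02 in LNCaP controls and 6.34, 6.22 and 6.31 after knockdown. It read 6.26, 6.18 and 6.10 in LNCaP-abl controls and 6.5, 6.27 and 6.25 after knockdown. The LNCaP groups were apart and the LNCaP-abl groups overlapped, and the interaction was 0.86 ± 0.12 (limma adjusted p = 9.81e-05). TP53INP1, a p53-induced stress protein, fell in both lines, to 62.2% of control in LNCaP and 79.5% in LNCaP-abl, with an interaction of 0.35 ± 0.05. As the mean of its probe sets it had 0.25 and was not called (limma adjusted p = 0.068). DST, a linker of the cytoskeleton in basal epithelium, rose in both lines, to 179% of control in LNCaP and 151% in LNCaP-abl.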
